A study of Homo sapiens with 24 samples.

Results

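HPRT1, CHIC1, TWF1, GMFB, ENPP5 and AAK1 are 6 genes of the 26364 in the count tables, and they were chosen by symbol on the changes seen after a mimic of miR-301b-3p. The RNA came from T-47D, a long-used luminal breast cancer line that depends on the oestrogen receptor, in clones whose own ESR1 gene was wildtype (WT) or carried a heterozygous Y537S or D538G mutation. Each ER genotype had 2 clones, so every condition has 2 libraries, 1 from each clone, and the 24 libraries cover 12 conditions. WT cells received the mimic negative control or 1 of 3 mimics, which copy miR-331-3p, miR-181c-5p or else miR-301b-3p. D538G cells received the mimic negative control or a mimic of either miR-181c-5p or miR-301b-3p. Y537S cells received the mimic negative control, the miR-301b-3p or miR-331-3p mimic, the inhibitor negative control or the let-7f-5p inhibitor. All cells were kept without hormones, transfected at 10 nM and collected 24 h later. Only 2 clones stand for each mutation, so a difference between genotypes cannot be told apart from a difference between these clones. The labels call the clones replicates, and p-values measure only the spread between them.

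A miRNA guides the Argonaute proteins to messenger RNAs that pair with its seed, the stretch near its 5′ end, mostly in the 3′ untranslated region (3′UTR). The bound messenger is then translated less and degraded sooner. Mimics are double-stranded RNAs that raise the dose of one miRNA, and inhibitors are antisense molecules that tie it up. miR-301b-3p belongs to the miR-130/miR-301 family, whose members share a seed and therefore much of their set of possible targets. The 4 mature miRNAs of the study are shown as RefSeq gives them (GRCh38), 5′ to 3′, with bases 2 to 8, the seed, in capitals, because the seed sets which 3′UTR letters can pair with each.
miR-301b-3p: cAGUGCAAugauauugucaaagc
miR-331-3p: gCCCCUGGgccuauccuagaa
miR-181c-5p: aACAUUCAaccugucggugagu
let-7f-5p: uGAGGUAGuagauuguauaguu
The 4 seeds differ, so a site for one is not a site for another. In the RefSeq table, miR-301b-3p shares its seed with miR-130b-3p, miR-301a-3p, miR-454-3p, miR-3666 and miR-4295, among others. This list is not complete. Same-seed entries on another chromosome were left out of it, and the table held no mature entry for miR-130a-3p.

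A seed match was defined as the 7 letters that pair with bases 2 to 8 (TTGCACT for miR-301b-3p, CCAGGGG for miR-331-3p, TGAATGT for miR-181c-5p and CTACCTC for let-7f-5p), on the strand of the transcript, and as an 8-base match where an A follows. All 6 genes hold at least 1 miR-301b match in the 3′UTR of their canonical transcript, against 16.0% of the 13370 tested genes with an annotated 3′UTR. The genes were chosen on changes after this mimic, and the shares are a description. They were not adjusted for length: the median 3′UTR of tested genes is 1306 bases. That of HPRT1 has 591 bases, and those of the other 5 genes have 1862 to 17872. HPRT1, ENPP5 and AAK1 hold an 8-base match, as 3.28% of tested genes do. The sites below carry the match in capitals, 5′ to 3′ on the transcript strand, with hg19 (GRCh37) positions, and each lies in the exonic 3′UTR of its gene in the GENCODE annotation. For AAK1 only the first match and the 8-base match are shown, and repeats in its 3′UTR were not annotated.
HPRT1, chrX:133634275-133634304, plus strand: aaactgtttatTTGCACTAtgagcctatag
CHIC1, chrX:72901023-72901051, plus strand: aggcttgtgttTTGCACTctcaattttaa
CHIC1, chrX:72905618-72905646, plus strand: cagaatgactaTTGCACTtggtctattgt
TWF1, chr12:44187993-44188021, minus strand: tgacaataatgTTGCACTtgtttactaaa
GMFB, chr14:54944546-54944574, minus strand: ccagggactttTTGCACTcttgtgactaa
ENPP5, chr6:46128750-46128779, minus strand: atttagcaactTTGCACTAtgtaaagtacc
ENPP5, chr6:46128725-46128753, minus strand: taccttatgtaTTGCACTttaaatttctc
AAK1, chr2:69701321-69701349, minus strand: cttcctcacatTTGCACTttatgggggaa
AAK1, chr2:69686458-69686487, minus strand: ggaggcagaggTTGCACTAagccaagatcg

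The genes differ in how many matches they hold and where. HPRT1 has 1 match, at base 179 of a short 3′UTR of 591 bases. GMFB has 1, at base 243 of 3603, and TWF1 has 1, at base 1378 of 1862. CHIC1 has 2, at bases 194 and 4789 of 6106. ENPP5 also has 2, at bases 295 and 321 of 2141, so that their starts are 26 bases apart. AAK1 has 5, spread over a 3′UTR of 17872 bases that is longer than 99.9% of those annotated, and the first starts at base 1663. Matches to the other miRNAs were fewer. CHIC1 holds 1 for miR-181c (8 bases) and 1 for let-7f (8 bases), and TWF1 and ENPP5 hold 1 for miR-181c each. AAK1 holds 2 for miR-331 (both 8 bases), 2 for miR-181c and 1 for let-7f. HPRT1 and GMFB hold none for these 3 miRNAs, and AAK1 alone among the 6 genes holds a miR-331 match.

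**Figure D1:**
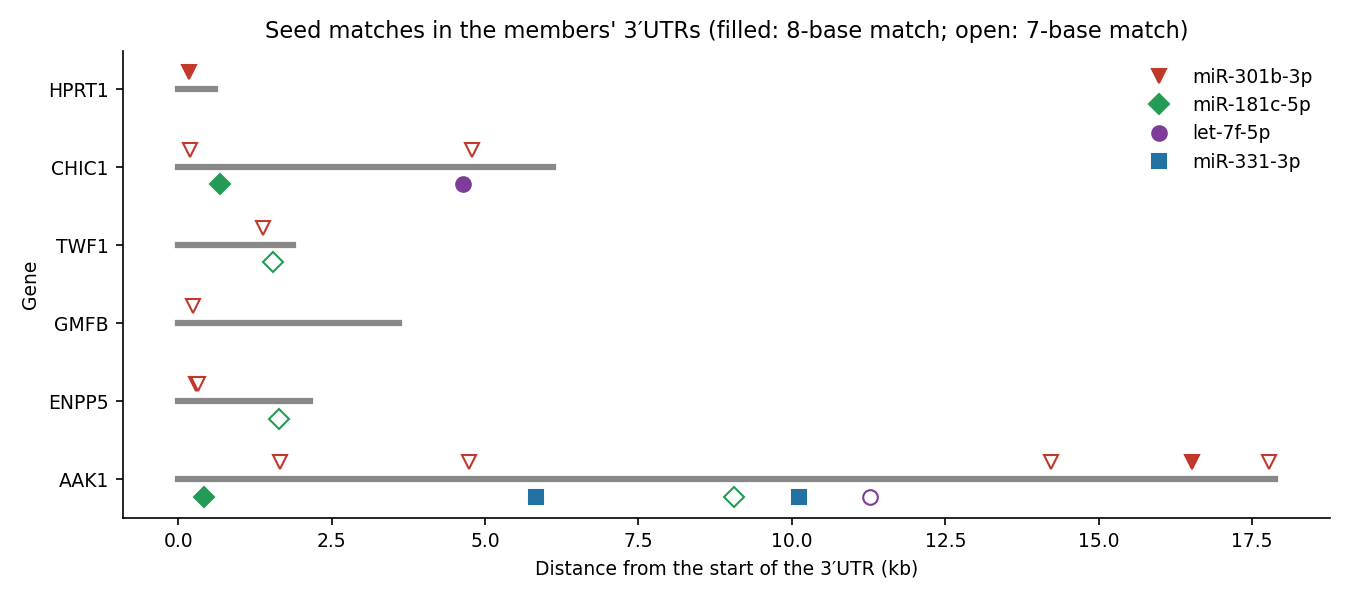
Each grey line is the 3′UTR of 1 gene, drawn from its start in kb, with miR-301b-3p matches above the line and those of miR-331-3p, miR-181c-5p and let-7f-5p below it. Filled symbols are 8-base and open symbols 7-base matches; HPRT1, GMFB and ENPP5 have miR-301b matches that all start within the first 321 bases, and the 2 of ENPP5 overlap at this scale.

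Libraries held 31379962 to 50526442 counts (median 39878595). The variance between the clones of a condition, averaged over genes, was 11.2 to 48.3 times that of counting noise. Levels are given as CPM, read counts scaled to library size after TMM normalization. In bulk RNA, fewer cells with a transcript and less of it per cell cannot be told apart. Luminal markers were high in all libraries, with medians of 1556 CPM for GATA3 and 2687 CPM for KRT8, while PTPRC, PECAM1, KRT5 and KRT14 stayed at or below 0.355 CPM. COL1A1, a collagen gene listed here as a stromal marker, was at 47.5 to 81.2 CPM. After miR-301b, 1 of the 7 luminal markers was called, ESR1 itself, with log2 fold changes of −0.87 in D538G and −0.70 in WT cells, and COL1A1 was called higher in WT cells (0.41). In the fit with the clone as a block 2 luminal markers were called higher and 1 lower in Y537S cells, and COL1A1 was called higher in all 3 genotypes, with 0.35 in Y537S and 0.40 in D538G cells. Their part in the changes below was not tested. The 6 genes had at least 154 counts in every library, the lowest being HPRT1, and all passed the filter on low counts in every comparison.

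The miR-301b-3p mimic addressed what added miR-301b does in cells of each genotype. HPRT1, CHIC1, TWF1 and ENPP5 were lower with the mimic in all 6 clones, with log2 differences from −2.16 to −1.16, and GMFB from −1.72 to −0.75. AAK1 was lower in all 6 clones too, but only from −0.45 to −0.26. These changes chose the genes and are given without a test.

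HPRT1 is the purine salvage enzyme that makes IMP and GMP from hypoxanthine and guanine. In Y537S cells it was at 25.8 and 23.6 CPM with the control in clones 1 and 2, and at 5.74 and 7.49 CPM with the mimic. In D538G cells it was at 17.1 and 19.1 CPM with the control in clones A5 and C2, and at 7.58 and 7.25 CPM with the mimic. In WT cells it went from 16.1 and 15.6 CPM in clones D1 and D4 to 5.83 and 4.82 CPM. No mimic library overlapped a control library. The log2 fold changes were −1.92 (SE 0.178) in Y537S, −1.29 (SE 0.152) in D538G and −1.57 (SE 0.158) in WT cells. The 6 miR-301b libraries were the lowest of all 24 for this gene.

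CHIC1 encodes a membrane-associated protein with a cysteine-rich hydrophobic domain. It was at 19.5 and 18.8 CPM with the control in Y537S clones 1 and 2, and at 5.48 and 4.82 CPM with the mimic. In D538G cells it was at 14.4 and 13.3 CPM with the control and at 5.75 and 4.22 CPM with the mimic, in A5 and C2. In WT cells the values were 27.6 and 21.9 CPM with the control and 10.6 and 8.17 CPM with the mimic, in D1 and D4. Control and mimic libraries again did not overlap within a genotype, though the WT mimic libraries stood above those of both mutants. The log2 fold changes were −1.92 (SE 0.158), −1.48 (SE 0.196) and −1.40 (SE 0.171) in Y537S, D538G and WT cells.

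TWF1 and GMFB both belong to the ADF-H family of actin regulators. Twinfilin, the TWF1 product, binds actin monomers and filament ends, and GMFB (glia maturation factor beta) acts on branched actin made by the Arp2/3 complex. TWF1 was at 136 and 164 CPM with the control in Y537S clones 1 and 2 and at 34.6 and 47.2 CPM with the mimic. It was at 106 and 117 CPM against 44.3 and 40.5 CPM in D538G clones A5 and C2, and at 163 and 149 CPM against 50.99 and 37.7 CPM in WT clones D1 and D4. All 3 genotypes ended at a like level with the mimic, 40.9 ± 8.9 CPM in Y537S, 42.4 ± 2.7 in D538G and 44.3 ± 9.4 in WT cells (SD, n = 2), with overlapping libraries. The log2 fold changes were −1.90 (SE 0.181), −1.39 (SE 0.0958) and −1.81 (SE 0.137). Exons of TWF1 overlap those of IRAK4 on the other strand. The paper names a stranded library kit, but the strand setting of the counting is not given in the sources used here. How reads from the shared stretch were assigned is therefore not known. IRAK4 itself, at 16.2 to 31.4 CPM, had log2 fold changes of 0.05, −0.01 and −0.17 after the mimic in Y537S, D538G and WT cells.

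GMFB was at 135 and 136 CPM with the control in Y537S clones 1 and 2, and at 42.2 and 46.0 CPM with the mimic. In D538G clones A5 and C2 it was at 95.3 and 105.7 CPM with the control and at 42.5 and 32.0 CPM with the mimic. In WT cells the clones differed: D1 went from 148 to 87.8 CPM and D4 from 122 to 52.2 CPM. The log2 fold changes were −1.65 (SE 0.0937) in Y537S, −1.44 (SE 0.130) in D538G and −0.95 (SE 0.210) in WT cells. The WT value was the smallest, and its mimic libraries did not overlap those of either mutant.

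ENPP5 is a transmembrane member of the ectonucleotide pyrophosphatase/phosphodiesterase family. It was at 37.9 and 42.7 CPM with the control in Y537S clones 1 and 2, and at 9.89 and 15.2 CPM with the mimic. In D538G clones A5 and C2 the values were 32.1 and 36.4 CPM against 14.2 and 11.6 CPM. In WT clones D1 and D4 they were 54.4 and 48.3 CPM against 16.4 and 15.1 CPM. The 6 miR-301b libraries were below the other 18. The log2 fold changes were −1.71 (SE 0.219), −1.41 (SE 0.137) and −1.70 (SE 0.110) in Y537S, D538G and WT cells.

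AAK1 is the kinase that phosphorylates the medium subunit of the clathrin adaptor AP-2. It was at 65.6 and 71.7 CPM with the control in Y537S clones 1 and 2, and at 52.9 and 55.4 CPM with the mimic. In D538G clones A5 and C2 it was at 66.6 and 65.6 CPM against 55.6 and 48.0 CPM, and in WT clones D1 and D4 at 74.9 and 71.3 CPM against 58.5 and 52.6 CPM. The groups did not overlap, but the log2 fold changes were only −0.37 (SE 0.0976), −0.36 (SE 0.0983) and −0.40 (SE 0.0901).

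**Figure D2:**
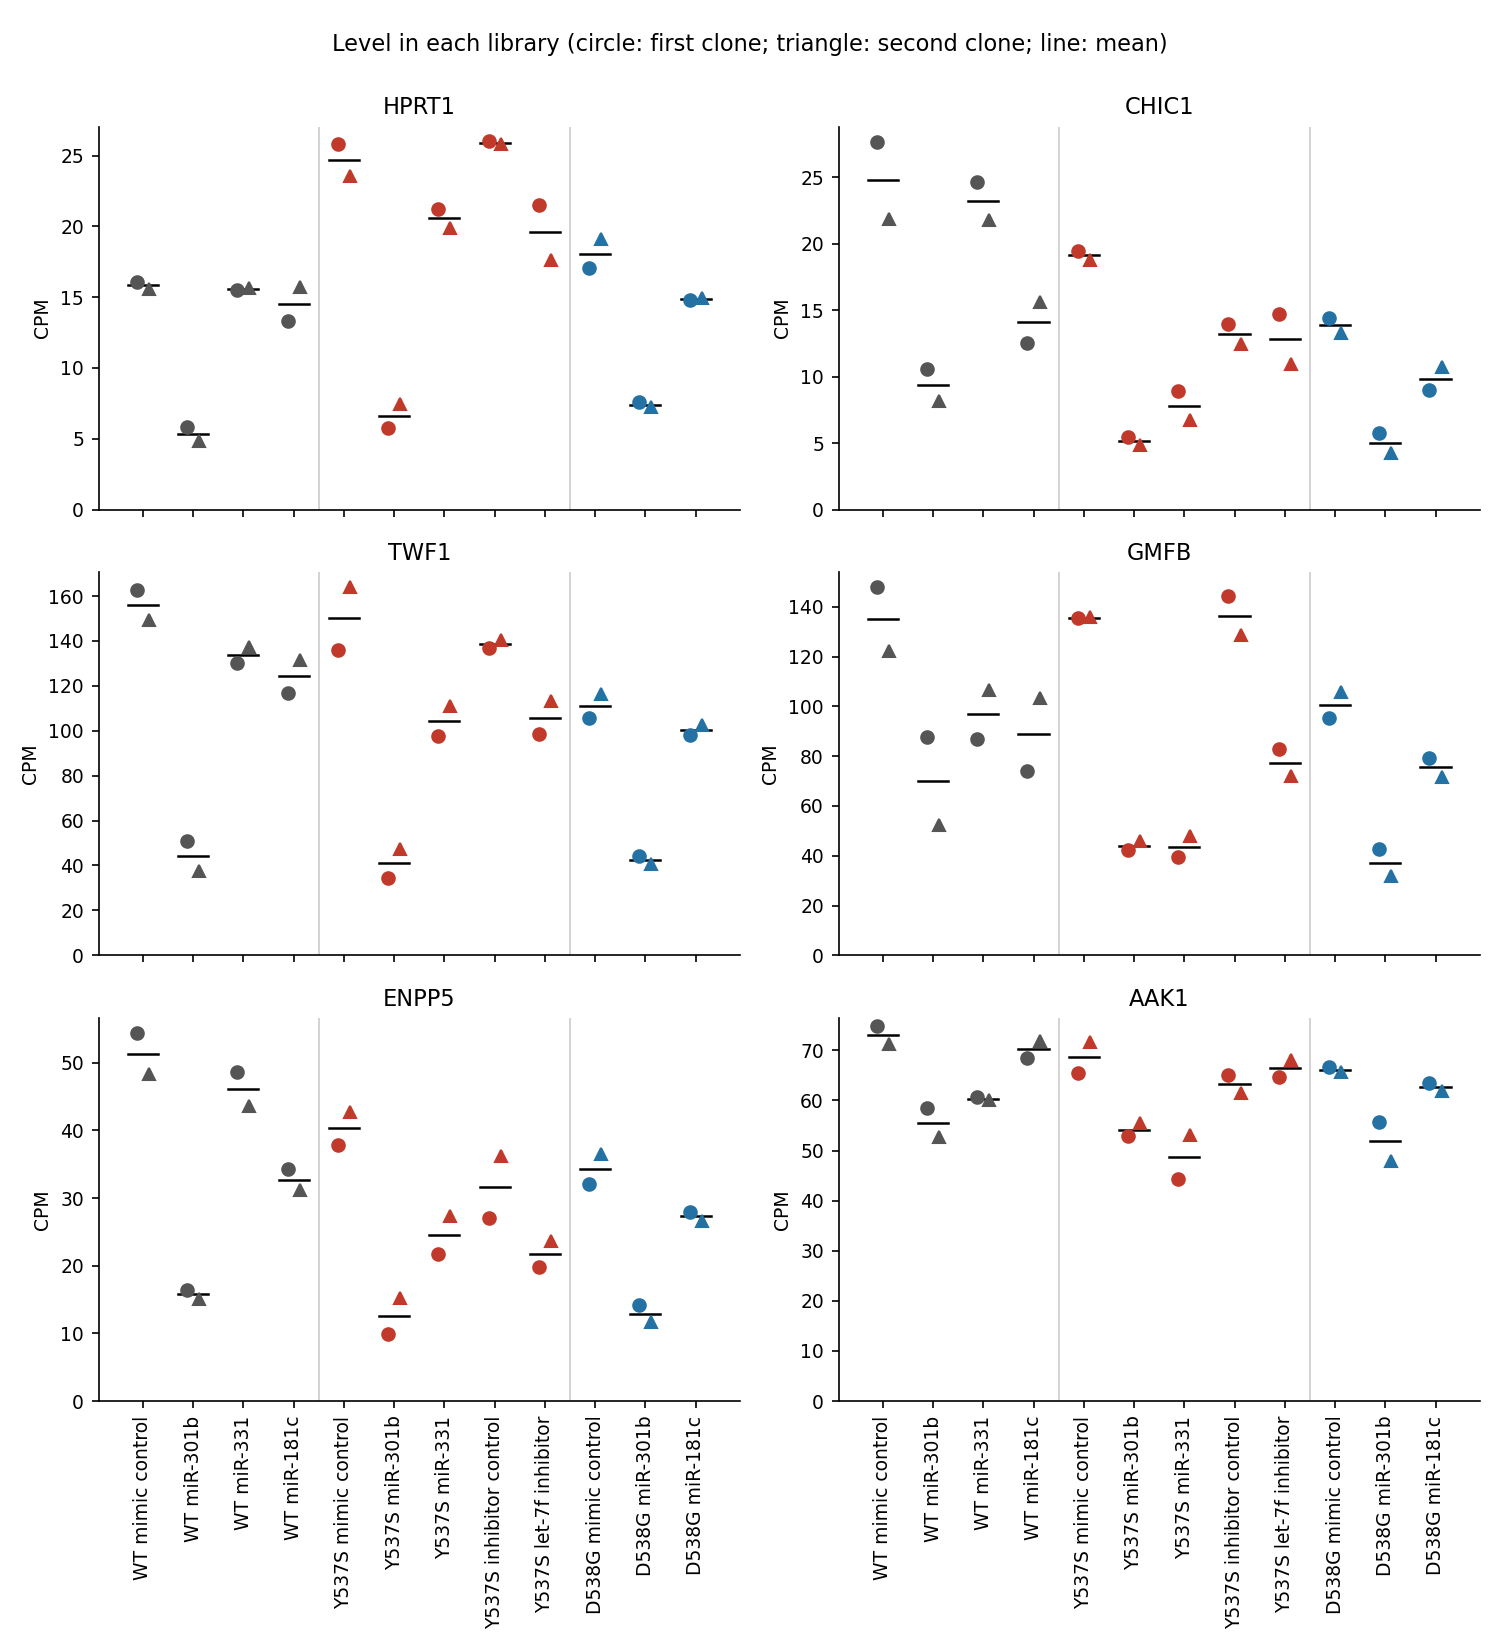
CPM of each gene (vertical axis, from 0) in the 24 libraries, grouped by genotype and treatment; circles are clones 1, A5 and D1, triangles clones 2, C2 and D4, and lines the mean of 2. The miR-301b libraries of HPRT1, TWF1 and ENPP5 lie below all others, AAK1 moves least, and GMFB and CHIC1 are also low in Y537S cells given miR-331.

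The label of the most repressed genes holds for 5 of the 6. Of the genes whose mean log2 CPM reached 3, HPRT1, CHIC1, TWF1, ENPP5 and GMFB ranked 1, 2, 3, 5 and 6 of 10109 by log2 fold change in Y537S cells. In D538G cells CHIC1, GMFB, ENPP5, TWF1 and HPRT1 ranked 1, 2, 3, 4 and 6 of 10091. In WT cells TWF1, ENPP5, HPRT1 and CHIC1 ranked 1, 2, 4 and 5 of 10101, and GMFB ranked 35. AAK1 ranked 1177, 1073 and 601 in the 3 genotypes, and so the data go against calling it one of the most repressed genes. The fit across all genes called 5 of the 6 genes lower in Y537S cells, where AAK1 was not called without the clone as a block, and all 6 in D538G and in WT cells. Of all genes tested, 2.34%, 6.49% and 3.87% were called lower in Y537S, D538G and WT cells, and nothing is read from the counts, since the changes chose the genes. GMFB in WT cells was not called by DESeq2. The median log2 fold change of the 6 genes was −1.80, −1.40 and −1.49, against 0.01, 0.01 and 0.00 for all genes tested.

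Other genes fell as far. In Y537S cells MMD had a log2 fold change of −1.72 and stood between TWF1 and ENPP5, and TMEM64 (−1.60) and MREG (−1.58) came just after GMFB. In D538G cells MYBL1 (−1.30) stood just above HPRT1, and TMED7 (−1.28) and CXCL12 (−1.23) just after it. In WT cells PDZD11 (−1.68), MREG (−1.37) and TMEM64 (−1.35) stood among or next to the first 5.

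The number of matches did not order the 6 genes. Other genes without a miR-301b match had median log2 fold changes of 0.03, 0.03 and 0.03 in Y537S, D538G and WT cells, and those with 1 match −0.14, −0.12 and −0.13. With 3 or more matches the medians were −0.37, −0.28 and −0.29. AAK1, with 5 matches, lay near those last medians in every genotype, while HPRT1 and TWF1, with 1 match each, lay far below the 5th percentile of genes with 1 match (−0.79, −0.68 and −0.69). GMFB, with 1 match, was also below that percentile in each genotype, and CHIC1 and ENPP5 were below that of genes with 2 matches (−0.95, −0.72 and −0.84). The genes were chosen on these same changes, so places below the percentiles follow from the choice and test nothing about the matches.

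**Figure D3:**
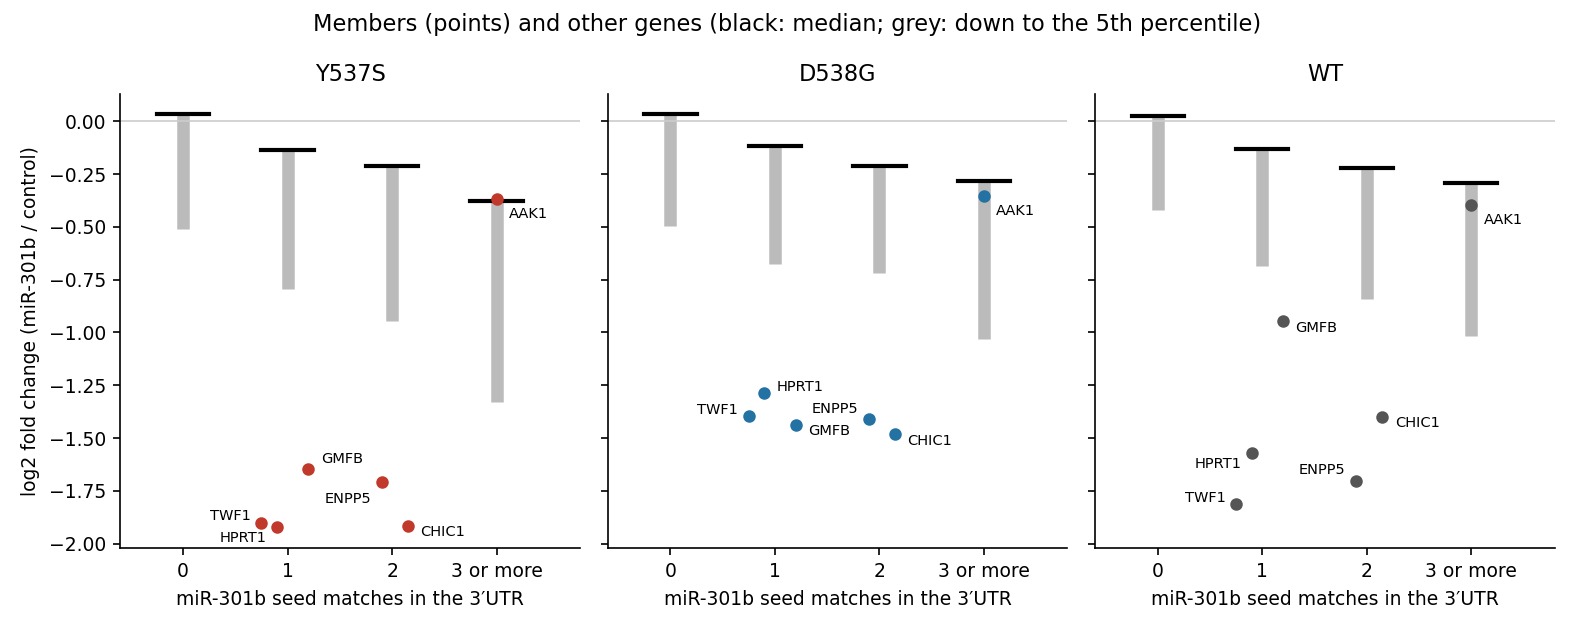
Vertical axis, change with the miR-301b mimic (log2); horizontal axis, number of 7-base matches in the 3′UTR, in Y537S, D538G and WT cells. Black lines are medians of the other genes and grey bars reach to their 5th percentile; AAK1 sits near the median of genes with 3 or more matches, and the other 5 genes sit below the 5th percentile of their class. The genes were chosen on these changes, so their places are a description.

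Base composition went with these changes. The transcripts of GMFB, CHIC1, TWF1, ENPP5 and HPRT1 have 33.3%, 34.8%, 35.4%, 37.8% and 40.4% GC, and that of AAK1 42.3%, against a median of 48.8% over tested genes. Other genes with less than 40% GC had median log2 fold changes of −0.25, −0.28 and −0.19 after the mimic in Y537S, D538G and WT cells, while those with 50% or more had 0.19, 0.19 and 0.17. With the GC trend removed from each library, the median of the 6 genes was −1.48, −1.04 and −1.26. In Y537S cells none of the 6 was then called without the clone as a block, and all 6 with it. The share of all genes called in these corrected fits is not given here, so the counts have nothing to stand beside. HPRT1 kept −1.71, −1.07 and −1.38, and GMFB −1.22, −0.97 and −0.69. AAK1 was left with −0.20, −0.19 and −0.23, and was no longer called in D538G or WT cells. With the block and the correction it was called in Y537S and WT cells. Nothing is read from the calls of the 6 genes in these fits, since the changes chose the genes.

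A second control was at hand in Y537S cells, and CHIC1, ENPP5 and AAK1 differed less from it in both clones. Against the inhibitor negative control, the miR-301b libraries of clones 1 and 2 had log2 differences of −2.17 and −1.78 for HPRT1, −1.98 and −1.57 for TWF1, and −1.77 and −1.48 for GMFB. CHIC1 had −1.34 and −1.36 and ENPP5 −1.45 and −1.25. AAK1 had −0.30 and −0.15. The inhibitor control itself differed from the mimic control by −0.47 and −0.59 for CHIC1 and by −0.48 and −0.24 for ENPP5, and by −0.22 in clone 2 for both TWF1 and AAK1.

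Added miR-331 was compared with the same negative control libraries that chose the genes, so its counts of falling genes are not independent of the choice. In Y537S cells, 5 of the 6 genes fell, against 15.8% of all genes tested called lower. Their median log2 fold change, over all 6, was −0.60 against −0.01 for all genes. GMFB was at 39.4 and 48.0 CPM in clones 1 and 2 with the mimic, around its 42.2 and 46.0 CPM with miR-301b, and fell by 1.62 on the log2 scale (SE 0.127, adjusted p = 0.00605 by the quasi-likelihood test of edgeR with Benjamini-Hochberg adjustment over all genes tested). CHIC1 was at 8.89 and 6.71 CPM and fell by 1.28 (SE 0.187, adjusted p = 0.00850, edgeR). Neither gene holds a miR-331 match in its 3′UTR. ENPP5, at 21.7 and 27.3 CPM, fell by 0.70 (SE 0.157, adjusted p = 0.0232, edgeR), and TWF1, at 97.8 and 111 CPM, fell by 0.51 (SE 0.137, adjusted p = 0.0394, edgeR). IRAK4, the gene on the other strand, had −0.50 (adjusted p = 0.0644, edgeR). The inhibitor control, which the choice did not use, was at 14.0 and 12.5 CPM for CHIC1 and at 144 and 129 CPM for GMFB, above both miR-331 libraries, and at 27.1 and 36.2 CPM for ENPP5, where the groups overlapped. AAK1, the gene with miR-331 matches, was at 44.4 and 53.0 CPM and fell by 0.48 (SE 0.126, adjusted p = 0.0369, edgeR). HPRT1 was at 21.2 and 19.9 CPM, with a log2 fold change of −0.25 (adjusted p = 0.184, edgeR). With the clone as a block HPRT1 was called as well (adjusted p = 0.0285, edgeR), which made 6 of 6 where 30.2% of all genes were called lower. Other genes under 40% GC had a median log2 fold change of −0.44 here, and those of 50% or more 0.35. After the GC correction only GMFB was still called (log2 fold change −0.92, adjusted p = 0.0119, edgeR), CHIC1 was at −0.66 (adjusted p = 0.0779, edgeR), and TWF1 and HPRT1 were at 0.07 and 0.02. With the block and the correction GMFB, CHIC1 (adjusted p = 4.92e-05, edgeR), ENPP5 (adjusted p = 0.00472, edgeR) and AAK1 (adjusted p = 0.000306, edgeR) were called. Without clone 1 or without clone 2, CHIC1, GMFB and AAK1 stayed called and TWF1 and ENPP5 were not (adjusted p = 0.112 to 0.225, edgeR).

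In WT cells the miR-331 mimic moved these genes less. GMFB was at 87.1 and 106.7 CPM in D1 and D4 and fell by 0.46 (SE 0.105, adjusted p = 0.00949, edgeR). AAK1, at 60.6 and 60.0 CPM, fell by 0.25 (SE 0.0655, adjusted p = 0.0170, edgeR), and TWF1, at 130 and 137 CPM, fell by 0.20 (SE 0.0653, adjusted p = 0.0478, edgeR). These 3 of 6 genes compare with 10.6% of all genes called lower. HPRT1, CHIC1 and ENPP5, with values of −0.001, −0.07 and −0.13, were not called. CHIC1 was at 24.7 and 21.8 CPM against 27.6 and 21.9 CPM with the control. All 3 calls were lost with the GC correction, where GMFB was at −0.21 (called with the block as well, adjusted p = 0.000147, edgeR), TWF1 at 0.04 and AAK1 at −0.07, and each was lost without either clone (adjusted p = 0.138 to 0.825, edgeR).

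The response to miR-331 was called different between the genotypes for CHIC1 and GMFB. The test used the mimic control libraries that chose the genes, so it is not independent of the choice. In Y537S clones 1 and 2 the inhibitor control differed from the mimic control by −0.47 and −0.59 for CHIC1. For GMFB these differences were 0.09 and −0.08, and WT cells had no inhibitor control. The difference of the log2 fold changes, Y537S minus WT, was −1.22 for CHIC1 (SE 0.242, adjusted p = 0.0204, edgeR) and −1.18 for GMFB (SE 0.191, adjusted p = 0.00948, edgeR). These 2 of 6 compare with 6.47% of all genes called in that direction. ENPP5 had −0.59 (adjusted p = 0.0826, edgeR), TWF1 −0.32 (adjusted p = 0.211, edgeR), HPRT1 −0.26 and AAK1 −0.24. With the clone as a block ENPP5 (adjusted p = 0.000112, edgeR) and TWF1 (adjusted p = 0.00473, edgeR) were called too, 4 of 6 where 17.4% of genes were called in that direction. With the GC correction GMFB kept its call at −0.73 (adjusted p = 0.0242, edgeR), CHIC1 was at −0.86 (adjusted p = 0.0703, edgeR) and TWF1 at 0.00. With the block and the correction CHIC1 (adjusted p = 0.000215, edgeR), GMFB, ENPP5 (adjusted p = 0.00415, edgeR) and AAK1 (adjusted p = 0.0317, edgeR) were called. The call of CHIC1 was lost without clone 2, D1 or D4 (adjusted p = 0.0589 to 0.0983, edgeR) and that of GMFB without clone 1, D1 or D4 (adjusted p = 0.0518 to 0.228, edgeR). Other genes under 40% GC had a median difference of −0.29.

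The miR-181c mimic, which also shares its controls with the miR-301b comparisons, was given to D538G and WT cells. In WT cells 4 of the 6 genes fell, against 8.28% of all genes called lower. CHIC1 was at 12.5 and 15.6 CPM in D1 and D4 and fell by 0.83 (SE 0.150, adjusted p = 0.00549, edgeR), ENPP5, at 34.3 and 31.1 CPM, fell by 0.66 (SE 0.0978, adjusted p = 0.00195, edgeR), and TWF1, at 117 and 132 CPM, fell by 0.34 (SE 0.0840, adjusted p = 0.0217, edgeR). These 3 genes hold a miR-181c match. GMFB, which holds none, was at 74.1 and 103.5 CPM and fell by 0.62 (SE 0.142, adjusted p = 0.0159, edgeR). AAK1, with 2 matches, was at 68.4 and 71.9 CPM, with a log2 fold change of −0.07 (adjusted p = 0.581, edgeR), and HPRT1 had −0.14. Once corrected for GC, CHIC1 (−0.51, adjusted p = 0.0310, edgeR) and ENPP5 (−0.41, adjusted p = 0.0174, edgeR) remained called, while TWF1 was at −0.04 and GMFB at −0.28, the latter called with the block as well (adjusted p = 0.0154, edgeR). GMFB was not called by DESeq2 (adjusted p = 0.0886). Without D1 only ENPP5 was called, CHIC1 being at −0.48 (adjusted p = 0.255, edgeR), and without D4 only CHIC1 and ENPP5 were.

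In D538G cells GMFB was at 79.3 and 71.7 CPM with the miR-181c mimic in A5 and C2 and fell by 0.41 (SE 0.0890, adjusted p = 0.0227, edgeR), and it was the 1 gene of 6 called, where 3.95% of all genes were called lower. CHIC1, at 8.98 and 10.7 CPM, had −0.49 (adjusted p = 0.0771, edgeR) and ENPP5, at 28.0 and 26.6 CPM, had −0.32 (adjusted p = 0.0871, edgeR). Both were called with the clone as a block (adjusted p = 0.00246 and 0.00432, edgeR), which made 3 of 6 where 13.6% of all genes were called lower. HPRT1, TWF1 and AAK1 had −0.28, −0.14 and −0.07. The call of GMFB was lost with the GC correction (−0.18, adjusted p = 0.281, edgeR), though not with the block and the correction (adjusted p = 0.00735, edgeR), and without C2 (−0.26, adjusted p = 0.688, edgeR). The miR-181c response was called different between D538G and WT cells in 0 of the 6 genes and in 0.00646% of all genes by edgeR. At an unadjusted p under 0.05 there were 1 of the 6 and 453 of 15482 genes, and DESeq2 called none of the 6. The differences of the log2 fold changes, D538G minus WT, ran from −0.13 for HPRT1 (SE 0.186) to 0.35 for ENPP5 (SE 0.147).

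**Figure D4:**
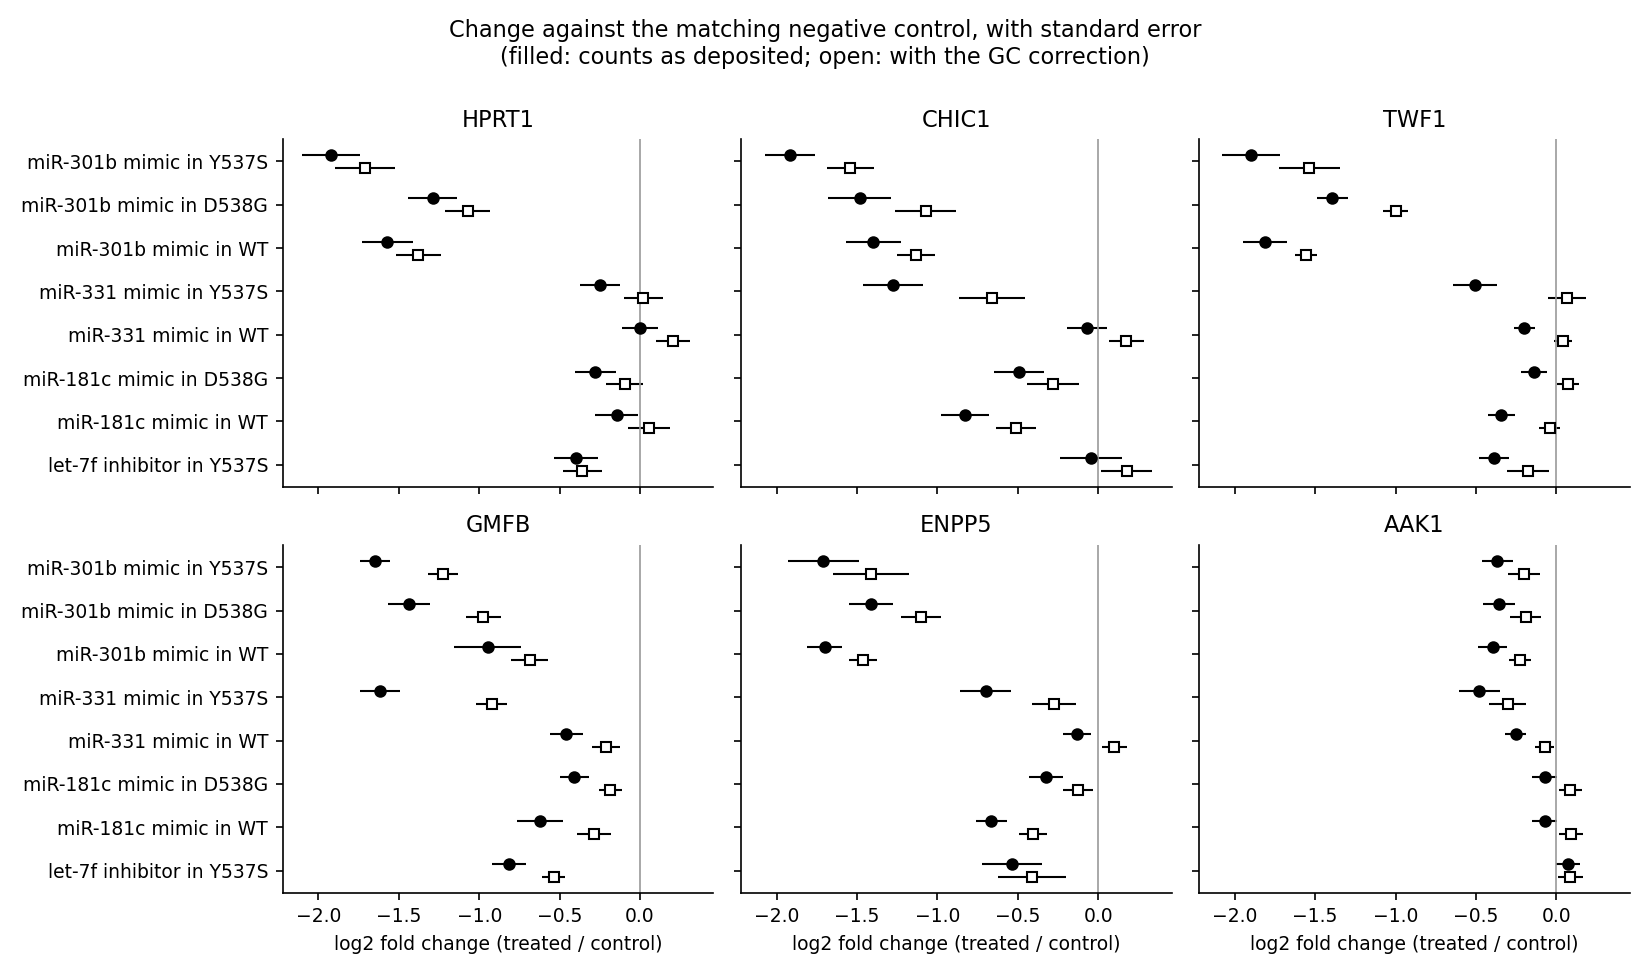
Log2 fold change with its standard error (horizontal axis) of each gene in the 8 treatment comparisons, from the counts as deposited (filled) and with the GC correction (open). With the correction, the miR-301b values of HPRT1, CHIC1, TWF1, GMFB and ENPP5 stay between −1.71 and −0.69, and many values with the other mimics lie near 0.

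The let-7f inhibitor and its own control share no library with the comparisons that chose the genes, and neither HPRT1, TWF1, GMFB nor ENPP5 holds a let-7f match. No gene of the 6 was called in Y537S cells, nor was any other (0% of 15140 genes by edgeR), though 4 of the 6 and 786 of all genes had an unadjusted p under 0.05. GMFB was at 144 and 129 CPM with the control in clones 1 and 2 and at 82.9 and 71.9 CPM with the inhibitor, which gives −0.81 on the log2 scale (SE 0.106, edgeR adjusted p = 0.751). DESeq2 called it (adjusted p = 2.67e-06). ENPP5 was at 27.1 and 36.2 CPM against 19.9 and 23.7 CPM (−0.54, SE 0.185), TWF1 at 137 and 141 CPM against 98.5 and 113 CPM (−0.39, SE 0.0940), and HPRT1 at 26.0 and 25.8 CPM against 21.5 and 17.7 CPM (−0.40, SE 0.137). In these 4 genes the inhibitor libraries lay below the control libraries. CHIC1 and AAK1, which each hold a let-7f match, had −0.04 and 0.07. With the clone as a block, GMFB (adjusted p = 9.23e-10, edgeR), TWF1 (adjusted p = 8.90e-06, edgeR), ENPP5 (adjusted p = 0.000253, edgeR) and HPRT1 (adjusted p = 0.00660, edgeR) were called, 4 of 6 against 6.88% of all genes called lower. With the block and the GC correction these 4 were still called, GMFB at −0.54 and TWF1 at −0.18.

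The genotypes were compared first with the mimic control, in libraries that the miR-301b comparisons share. HPRT1 was higher in Y537S than in WT cells by 0.65 (SE 0.125, adjusted p = 0.00840, edgeR), with 25.8 and 23.6 against 16.1 and 15.6 CPM. It was the 1 gene of 6 called, where 16.3% of all genes were called higher. The other 5 had differences of −0.36 (CHIC1), −0.33 (ENPP5), −0.07 (AAK1), −0.04 (TWF1) and 0.02 (GMFB). CHIC1 (−0.42, adjusted p = 0.0428, edgeR) and ENPP5 (−0.37, adjusted p = 0.0317, edgeR) were called lower with the GC correction. In D538G cells 4 of 6 genes were lower than in WT cells, where 18.5% of all genes were: CHIC1 with a log2 difference of −0.85 (SE 0.144, adjusted p = 0.00157, edgeR), ENPP5 with −0.60 (SE 0.103, adjusted p = 0.00183, edgeR), TWF1 with −0.50 (SE 0.0821, adjusted p = 0.00132, edgeR) and GMFB with −0.44 (SE 0.103, adjusted p = 0.00828, edgeR). HPRT1 and AAK1 differed by 0.18 and −0.16 and were not called. The call of GMFB was lost without any of the 4 clones (adjusted p = 0.0947 to 0.462, edgeR).

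In libraries that the choice did not use, the differences were as follows. They include any difference between genotypes in the response to the mimic given, so they do not measure genotype alone. For miR-331 that difference in response was −1.22 for CHIC1 and −1.18 for GMFB. With the miR-331 mimic, CHIC1 (−1.59, SE 0.182, adjusted p = 0.00122, edgeR), GMFB (−1.17, SE 0.143, adjusted p = 0.00150, edgeR), ENPP5 (−0.93, SE 0.145, adjusted p = 0.00333, edgeR) and TWF1 (−0.38, SE 0.0950, adjusted p = 0.0184, edgeR) were lower in Y537S than in WT cells. HPRT1 was higher by 0.38 (SE 0.124, adjusted p = 0.0439, edgeR). These 4 genes lower and 1 higher compare with 24.8% of all genes called lower and 24.8% called higher. AAK1 had −0.33 (adjusted p = 0.0540, edgeR), and was called with the GC correction (−0.38, adjusted p = 0.0263, edgeR). IRAK4 was also lower, by −0.45 (adjusted p = 0.0403, edgeR), so the share of TWF1 in reads of that pair is uncertain. The call of HPRT1 was lost with DESeq2 (adjusted p = 0.0659) and without any of the 4 clones, and that of TWF1 with the GC correction (−0.12, adjusted p = 0.250, edgeR) and without any of the 4 clones. With the miR-181c mimic, CHIC1 (−0.54, SE 0.173, adjusted p = 0.0334, edgeR) and TWF1 (−0.32, SE 0.0897, adjusted p = 0.0170, edgeR) were lower in D538G than in WT cells, 2 of 6 against 17.3% of all genes. ENPP5, GMFB, AAK1 and HPRT1 had −0.28, −0.25, −0.18 and 0.02, and ENPP5 and GMFB were called lower with the GC correction (adjusted p = 0.0245 and 0.0211, edgeR). CHIC1 was not called without A5 or D4, nor TWF1 without any of the 4 clones.

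Across the 12 conditions, the mean of HPRT1 ran from 5.32 ± 0.71 CPM in WT cells with miR-301b to 25.9 ± 0.11 in Y537S cells with the inhibitor control (SD, n = 2). Its 3 miR-301b conditions were the lowest and overlapped in sequence, and the 4 conditions of Y537S cells without miR-301b were the highest. ENPP5 ran from 12.5 ± 3.7 CPM in Y537S cells with miR-301b to 51.3 ± 4.3 in WT cells with the mimic control, and TWF1 from 40.9 ± 8.9 to 156 ± 9.3 in the same conditions. In TWF1 a gap without overlap separated the miR-301b conditions from the next (D538G with miR-181c, 100.4 ± 3.2 CPM). CHIC1 ran from 4.98 ± 1.08 CPM in D538G cells with miR-301b to 24.8 ± 4.1 in WT cells with the mimic control. Between them stood Y537S cells with miR-331, at 7.80 ± 1.54 CPM, below WT cells with miR-301b (9.37 ± 1.69), and these neighbours overlapped. GMFB was lowest in D538G cells with miR-301b (37.3 ± 7.4 CPM), and Y537S cells with miR-331 and with miR-301b came next at 43.7 ± 6.1 and 44.1 ± 2.7, all overlapping. AAK1 had the narrowest range, from 48.7 ± 6.1 CPM in Y537S cells with miR-331 to 73.1 ± 2.6 in WT cells with the mimic control, and its 4 lowest conditions overlapped in sequence.

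Likeness of pattern was measured as Pearson's r of log2 CPM over the 24 libraries after each clone's mean was removed, among 10064 genes with the 6 themselves left out of the search, and it is a description, since the libraries share clones, controls and treatments. HPRT1 was most like MREG (r = 0.99) and UHMK1 (0.98), TWF1 like UHMK1 and CALM2 (both 0.99), and ENPP5 like SGMS2 (0.98) and SAR1B (0.97). GMFB was most like ELMOD2 (0.99) and ZBTB41 (0.98), CHIC1 like IL6ST (0.95) and TRA2A (0.94), and AAK1 like AKAP11 and ERBB2IP (both 0.97). Of these, MREG, CALM2, SGMS2, SAR1B, ZBTB41, IL6ST and ERBB2IP hold a miR-301b match in the 3′UTR. With Spearman's rho, 3 of the 12 pairs (ELMOD2, ZBTB41 and SGMS2) were again among the 2 most alike. Between the 6 genes r was highest for HPRT1 with TWF1 (0.98) and lowest for HPRT1 with AAK1 (0.62).

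Most partners of these genes in their pathways had smaller values after miR-301b. Across all genes tested, 1.23%, 5.29% and 4.63% were called higher in Y537S, D538G and WT cells. With the clone as a block 20.0%, 16.9% and 14.2% of all genes were called lower and 18.4%, 16.4% and 14.0% higher, and the counts below stand beside those shares. Of the other 16 tested genes of purine synthesis and salvage, IMPDH1, which makes the guanine branch's precursor, was the 1 called in Y537S cells and fell by 0.88 (SE 0.133, adjusted p = 0.0331, edgeR). In D538G cells IMPDH1 and PPAT, the first committed enzyme of purine synthesis, fell by 0.53 each, and APRT, the adenine salvage enzyme, rose by 0.37. In WT cells IMPDH1 again was the 1 called and fell by 0.59. The list's medians were −0.21, −0.15 and −0.10, and 1, 2 and 1 genes fell. In the blocked fit 8, 7 and 4 fell and 1, 1 and 2 rose. PPAT (−0.56) and APRT (0.36) were also called after miR-181c in D538G cells. APRT was called higher after miR-331 as well, by 1.07 in Y537S and 0.43 in WT cells. In the comparison of Y537S with WT cells given the mimic control, where HPRT1 was higher, 10 of these 16 genes were higher and 1 was lower, against 16.3% and 12.7% of all genes. Among them were PRPS2 (1.11), GMPS (0.71), PAICS (0.59) and IMPDH2 (0.63). In D538G cells, where HPRT1 was not called, 9 were higher and 2 lower than in WT cells, against 20.4% and 18.5% of all genes.

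Of 12 other tested ADF-H genes and partners, none was called after miR-301b in Y537S cells, where 5 fell and 4 rose with the clone as a block. In D538G cells CFL2, a cofilin, fell by 0.69 (SE 0.125, adjusted p = 0.0105, edgeR), DSTN fell by 0.32 and DBN1 rose by 0.40, and in WT cells CFL2 fell by 0.66. With the block 4 fell and 4 rose in D538G, and 6 fell and 5 rose in WT cells. DBN1 was also called higher after miR-331 in Y537S and WT cells and after miR-181c in WT cells. Of 3 tested ENPP relatives, ENPP4, the closest in kind to ENPP5, fell by 0.80 in D538G (adjusted p = 0.00742, edgeR) and 0.72 in WT cells (adjusted p = 0.0292, edgeR), and 1 of the 3 was called lower in Y537S cells with the block alone. CHIC2, the paralog of CHIC1, was not called and had 0.47, −0.02 and 0.26 in Y537S, D538G and WT cells, and with the block it was called higher in Y537S cells. Of 15 kinases of the AAK1 group and clathrin AP-2 coat genes, none was called in Y537S or WT cells, and in D538G cells EPN1 (0.34) and STK16 (0.41) rose and PICALM (−0.30) fell. With the block 6, 5 and 4 rose and 5, 4 and 3 fell in Y537S, D538G and WT cells. EPN1 and STK16 were also called higher after miR-331 in Y537S and WT cells. After miR-181c EPN1 was called higher in D538G and WT cells, and PICALM lower in WT cells.

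A list of 15 genes described as targets of the miR-130/miR-301 family, 12 of which were tested, gives a scale for the 6. After miR-301b, 4 fell in Y537S, 5 in D538G and 5 in WT cells and none rose, with medians of −0.48, −0.36 and −0.41. With the clone as a block 9 fell in each genotype, and 2 rose in Y537S cells. DICER1, the enzyme that cuts miRNA precursors, had the smallest p of the list, with log2 fold changes of −1.26 (SE 0.0899, adjusted p = 0.0193, edgeR), −1.11 (SE 0.110, adjusted p = 0.00220, edgeR) and −1.04 (SE 0.108, adjusted p = 0.00256, edgeR). The fall of HPRT1, CHIC1, TWF1 and ENPP5 was larger than that of DICER1 in all 3 genotypes, as a comparison of values without a test. DICER1 was also called lower after miR-331 in Y537S cells (−0.61) and after miR-181c in D538G and WT cells (−0.66 in each). After miR-331 the list's medians were −0.04 and −0.18 in Y537S and WT cells. In Y537S cells 3 were called lower and 1 higher, against 15.8% and 17.2% of all genes. In WT cells 4 were called lower and 1 higher, against 10.6% and 14.2%. With the block 6 and 7 were lower, against 30.2% and 17.2% of all genes. In each of these genotypes 2 were then higher, against 30.5% and 19.8%. After miR-181c the medians were −0.06 in D538G and −0.09 in WT cells. In D538G cells 1 was called lower and 1 higher, against 3.95% and 5.58% of all genes. In WT cells 2 were called lower and 2 higher, against 8.28% and 8.1%. With the block 2 and 4 were lower, against 13.6% and 13.4% of all genes. Another 4 and 2 were then higher, against 15.6% and 14.5%.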

How the data were processed

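Poly-A libraries of the 24 samples were sequenced on an Illumina NovaSeq. According to the methods and the labels, HISAT2 placed the reads on hg19 and featureCounts assigned them to UCSC Known Genes. The authors deposited whole-number read counts without any scaling; tool versions, strand setting and the treatment of multimapping reads are not given in the sources used here. HPRT1, TWF1 and GMFB have processed pseudogenes, which such reads could touch.

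Headings give clones A5 and C2 for D538G and D1 and D4 for WT, which the labels do not join to sample numbers, so those columns were assigned to their condition; 0 columns were left unused. Some labels transpose the digits of Y537S, and the titles' form was used. Every comparison was fitted over the whole table with edgeR 4.0.16 in R 4.3.3: TMM, filterByExpr, quasi-likelihood F test, two-sided, Benjamini-Hochberg over all genes tested, called at an adjusted p under 0.05. Fits held only the libraries compared, with no block; the study's methods name DESeq2 and clones as biological duplicates. At 2 against 2 the smallest p of a two-sided exact permutation is 0.333. The SE is the log2 fold change over the square root of F. Log2 CPM used a prior count of 2. Clones pair the libraries, being the same cell lines; clone differences correlated across genes between conditions (r = 0.23 to 0.81), and the blocked value is given beside results whose calls it changed.

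The 6 genes, the companion lists and the tests were chosen with earlier results of these data known. Genes were named by rule: the 6; up to 4 called genes with the smallest p per list; the 2 most alike per gene; per genotype the 3 largest falls outside the 6. IRAK4 was named after its overlap was seen. Some genes that the rule names are not reported here. Seed matches used GENCODE v44 lifted to GRCh37, which is not the annotation counted on: 22494 genes matched their symbol, another 1358 an older one, and 2512 had no match. Alternatives were DESeq2 1.42.0, RLE size factors, no filter, a GC correction (lowess span 0.3), the block, both together, and each clone left out, where the lone sample is assumed to vary like the other groups. Fits were tested on data simulated without a clone difference, at the levels and spread of the let-7f comparison. The unblocked fit recovered 75 of 100 genes changed by 1 on the log2 scale and 99 of 100 changed by 2. It also made 26 false calls. With the block these numbers were 69, 98 and 24. Python 3.11.15, pandas 2.3.3 and numpy 2.4.6 were used.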

Additional observations from a re-analysis of the deposited data

Results flagged for a closer look

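CHIC1 and GMFB were singled out because their response to the miR-331 mimic differed between genotypes by a test of the difference itself: Y537S minus WT was −1.22 for CHIC1 and −1.18 for GMFB on the log2 scale (adjusted p = 0.0204 and 0.00948, edgeR). For CHIC1 the log2 differences were −1.13 and −1.48 in Y537S clones 1 and 2, and −0.16 and −0.01 in WT clones D1 and D4. For GMFB they were −1.78 and −1.5004 in the Y537S clones, and −0.77 and −0.20 in the WT clones. All were taken against the mimic control libraries that chose the genes, so the test is not independent of the choice. Neither 3′UTR holds a miR-331 match, both transcripts are low in GC, and the part of base composition in the difference was not tested beyond the GC correction. Groups of 2 libraries are too small for a test of outlying samples.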

How the results depend on the processing

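With the GC correction the median log2 fold change of the 6 genes was −1.48 in Y537S, −1.04 in D538G and −1.26 in WT cells, and with the replicate block and the GC correction −1.49, −1.04 and −1.26. RLE size factors moved none of the 14 results counted, DESeq2 moved 1 and no filter moved 2. With 2 libraries a group, each leave-one-out fit rests on a single sample in 1 arm, and the cause of lost calls was not tested.

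Of the 6 genes, the number called changed as follows. Shares of all genes called are given above only for the main fit and the fit with the block. For the other fits a changed count cannot be told apart from a change in how many genes the fit calls. With the GC correction it was 1 for miR-331 in Y537S, 0 for miR-331 in WT, 0 for miR-181c in D538G, 2 for miR-181c in WT, 3 for Y537S against WT with the mimic control, 4 for D538G against WT with miR-181c and 1 for the difference in miR-331 response. With the replicate block it was 3 for miR-181c in D538G, 4 for the let-7f inhibitor and 4 for the difference in miR-331 response, and the block changed no other count of calls by over 1.5 times. With the replicate block and the GC correction it was 1 for miR-331 in WT, 4 for the let-7f inhibitor and 4 for the difference in miR-331 response. Without the filter it was 2 for miR-181c in D538G and 2 for Y537S against WT with the mimic control, and by DESeq2 it was 1 for the let-7f inhibitor. Leaving out a clone gave 3 to 3 for miR-331 in Y537S, 0 to 0 for miR-331 in WT, 0 to 1 for miR-181c in D538G, 1 to 2 for miR-181c in WT, 3 to 4 for Y537S against WT with miR-331, 0 to 1 for D538G against WT with miR-181c, and 0 to 1 for the difference in miR-331 response.

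These values changed sign. With the GC correction and then with the replicate block as well, after miR-331 in Y537S cells, HPRT1 was at 0.0217 and 0.0212 and TWF1 at 0.0659 and 0.0704. After miR-331 in WT cells HPRT1 was at 0.204 and 0.204, CHIC1 at 0.176 and 0.177, TWF1 at 0.0409 and 0.0405, and ENPP5 at 0.100 and 0.0993. After miR-181c, TWF1 was at 0.0710 and 0.0704 and AAK1 at 0.0872 and 0.0872 in D538G, and HPRT1 at 0.0579 and 0.0519 and AAK1 at 0.0915 and 0.0900 in WT cells. CHIC1 after the let-7f inhibitor was at 0.177 and 0.174, and TWF1 in the miR-331 response at 0.00046 and 0.00552. With the GC correction alone GMFB was at −0.0592 for Y537S against WT with the mimic control, HPRT1 at −0.00258 for D538G against WT with miR-181c, and AAK1 at −3e-05 in the miR-181c response, where RLE gave −0.00497 and DESeq2 −0.00506. Without the filter HPRT1 was at 0.00357 after miR-331 in WT cells. Leaving out a clone gave −0.0698 to 0.00442 for HPRT1 after miR-331 in WT; −0.316 to 0.0103 for HPRT1 and −0.169 to 0.0145 for AAK1 after miR-181c in WT; −0.207 to 0.0813 for CHIC1 after the let-7f inhibitor; −0.193 to 0.0911 for TWF1 and −0.0923 to 0.182 for GMFB in Y537S against WT with the mimic control; −0.0733 to 0.165 for HPRT1 and −0.449 to 0.0308 for GMFB in D538G against WT with miR-181c; and −0.0184 to 0.640 for CHIC1, −0.179 to 0.583 for GMFB and −0.0964 to 0.0497 for AAK1 in the miR-181c response.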
